A study of Mus musculus with 5 samples.

Results

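Pmp2 and the fatty acid-binding protein genes encode small intracellular proteins that hold long-chain fatty acids and related lipids inside a barrel-shaped pocket. Members were the probe sets of the deposited table whose single gene symbol in the platform annotation was Pmp2 or Fabp followed by a number. This rule found 6 of the 9407 genes named in a table of 10361 probe sets, namely Pmp2, Fabp2, Fabp3, Fabp5, Fabp6 and Fabp7. The mouse reference lists 10 protein-coding genes with such names, and Fabp1, Fabp4, Fabp9 and Fabp12 were not analysed here. Every probe set of the table varied between arrays, with the fourth-ranked of the 5 values at least 0.175 above the lowest on the log2 scale. The 6 members therefore cover the family only in part. All shares of probe sets and adjustments of p-values below were taken over this table, so they need not hold for the whole array.

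The study measured sciatic nerves of mouse pups on a C57Bl6N background at postnatal day 2. The groups were Ebf2+/+ wild-type pups (WT, pools 1, 9 and 11) and Ebf2-/- knockout pups (KO, pools 2 and 4) from crosses of heterozygous parents. Each pool joined 12 nerves and was hybridised to 1 Affymetrix whole-transcript array. The labels name neither the deleted part of Ebf2 nor the number of animals and litters in a pool, so a p-value covers only how far these pools differ, some of which may be technical. Pool values are given in the order 1, 9, 11 for WT and 2, 4 for KO throughout. Ebf2, the deleted transcription factor gene, read 11.55, 11.14 and 11.40 in WT and 9.25 and 8.75 in KO, on the side of the label in every pool. Of the 6 genes listed as Schwann cell markers, Sox10, Cdh19 and Erbb3 were measured and the other 3 were not analysed here. Array medians ran from 8.93 (KO pool 4) to 9.11 (KO pool 2). Probe set by probe set, however, the median of KO pool 4 minus KO pool 2 was 0, so the typical probe set did not shift between them.

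Peripheral myelin is made by Schwann cells, which wrap axons and stack lipid-rich membrane around them. Pmp2 encodes the P2 protein, a fatty acid-binding protein on the cytoplasmic face of compact peripheral myelin. Fabp7 encodes the brain type, known from radial glia and from early cells of the Schwann lineage. Fabp3 is the heart and muscle type, Fabp5 the epidermal type, Fabp2 the intestinal type, and Fabp6 the ileal type that carries bile acids.

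Levels below are log2 values made with RMA, and a log2 fold change is the KO mean minus the WT mean, with the standard error (SE) of the limma fit. A probe set was called at a limma p below 0.05 after Benjamini-Hochberg adjustment over all 10361 probe sets. Of the 6 members 1 was called, lower in KO, and 5 were not. Across the array 0.676% of the probe sets were called, 0.328% lower and 0.347% higher. Unadjusted p was below 0.05 at 14.3% of the probe sets, the share to set beside such counts in the lists below.

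Pmp2 fell in the KO pools. Its level was 11.53, 12.31 and 11.67 in WT, against 10.41 and 8.97 in KO. The groups did not overlap, and the higher KO pool lay 1.12 below the lowest WT pool. The mean went from 11.83 ± 0.42 (SD, n = 3) to 9.69 ± 1.02 (SD, n = 2), which is lower by 4.42-fold (95% interval of the log2 fold change -2.74 to -1.54 around -2.14, SE 0.29, limma adjusted p = 0.000407). Only Krt1, a skin keratin that was not called, and Ebf2 itself had a more negative log2 fold change among all probe sets. The KO pools differed from each other by 1.44 at Pmp2, the 32nd largest gap between them in the table, where the median gap was 0.21. The call ended without either KO pool, without WT pool 1 or WT pool 9, and against WT pool 1 alone, with log2 fold changes from -2.86 (without KO pool 2) to -1.42 (without KO pool 4) and adjusted p from 0.119 to 0.839. It also ended with each array centred on its median (-2.08, adjusted p = 0.282), after quantile normalisation (-2.14, adjusted p = 0.294) and without moderation of the variance (-2.14, SE 0.62, adjusted p = 0.560). The other called genes named here lost their calls under these same 8 alternatives, except that Ebf2 kept it without WT pool 9, with median centring and after quantile normalisation.

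**Figure D1:**
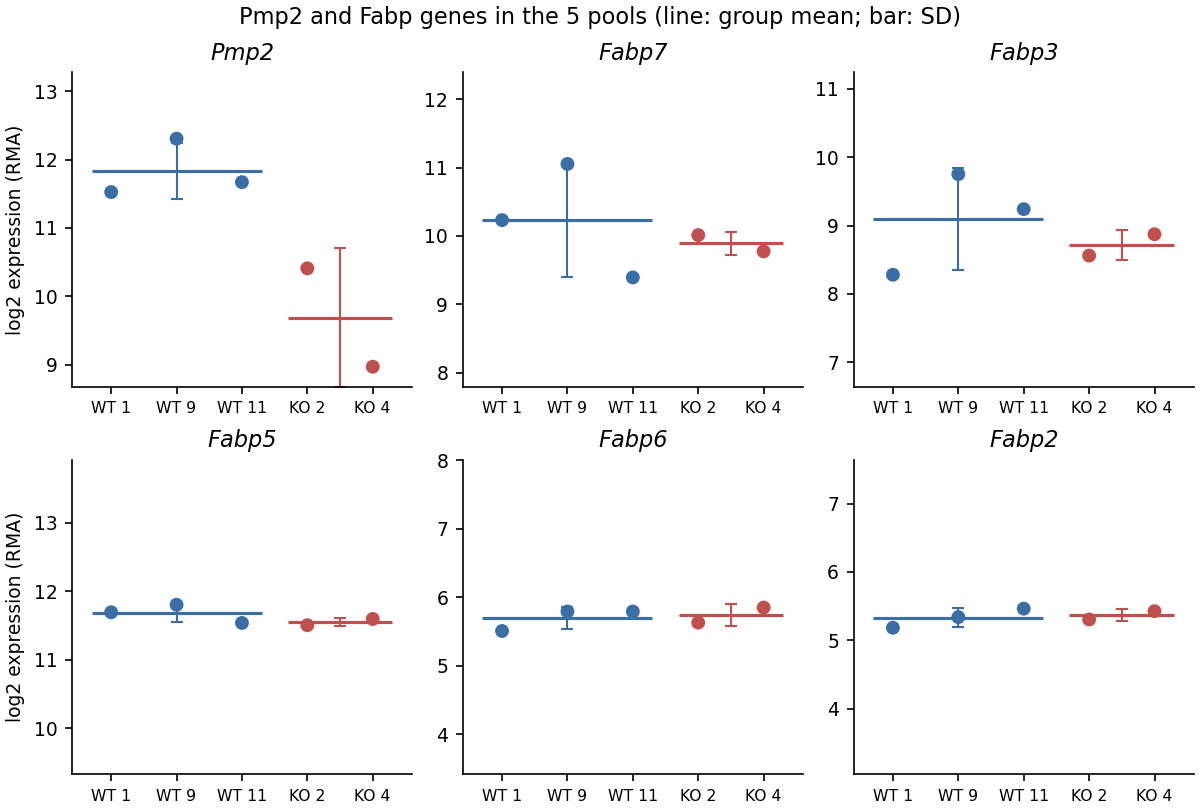
Log2 expression of the 6 members in each pool, with WT pools in blue and KO pools in red, horizontal lines at the group means and bars of 1 SD around them. Both KO points lie below all 3 WT points for Pmp2 (10.41 and 8.97 against 11.53 or more), while the groups overlap for the other 5 genes.

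Fabp7 was not called. Its level was 10.23, 11.05 and 9.39 in WT, against 10.01 and 9.78 in KO. Both KO values lay inside the WT range, which spanned 1.66. The WT mean was 10.23 ± 0.83 (SD, n = 3) and the KO mean 9.89 ± 0.17 (SD, n = 2), with a log2 fold change of -0.33 (SE 0.29, limma adjusted p = 0.613). Its 95% interval ran from -0.94 to 0.27, so this number of arrays leaves a wide range of changes possible. Without moderation of the variance the SE was 0.62, so the spread of Fabp7 itself leaves a wider range than this interval. Fabp7 had the 93rd largest SD between WT pools in the table. The sign of its difference rested on WT pool 9, without which it was 0.08.

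The bases before the start site of Fabp7 are shown because it is the glial member with an entry in the RefSeq promoter table, which matched 4 of the 6 members. The 250 bases before the start lie at chr10:57784673-57784922 of GRCm38.p6, plus strand, and hold 54.8% G and C. Capitals mark the single match to a short SOX core.

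Fabp7: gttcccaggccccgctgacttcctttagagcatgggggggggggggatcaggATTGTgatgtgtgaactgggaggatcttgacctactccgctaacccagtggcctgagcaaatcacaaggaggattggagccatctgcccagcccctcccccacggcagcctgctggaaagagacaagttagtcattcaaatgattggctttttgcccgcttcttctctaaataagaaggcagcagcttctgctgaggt

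Both strands of this window were searched for CCCNNGGG, the core letters bound by early B cell factors, for the POU octamer ATGCAAAT, for the SOX letters ACAAAG and for the EGR letters GCGNGGGCG, with no match to these 4. The shorter SOX core ACAAT, added after that search, matched once on the other strand, at 198 to 194 bases before the start. Among 32851 promoter windows of the same length, 27.7% hold ACAAT, 16.5% ACAAAG, 11.8% CCCNNGGG, 4.7% GCGNGGGCG and 1.6% ATGCAAAT. The search describes letters in this window only.

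Fabp3 was not called and varied mainly among the WT pools. Its level was 8.28, 9.75 and 9.24 in WT, against 8.56 and 8.87 in KO, with both KO values inside the WT range. Its log2 fold change was -0.37 (SE 0.27, limma adjusted p = 0.549), and 0.44 against WT pool 1 alone. The means of the 6 skeletal muscle markers, all measured, were 11.07, 12.60 and 12.45 in WT and 11.58 and 11.79 in KO, which puts the 5 pools in the same order as Fabp3. The means of the 5 measured adipocyte markers of 6 gave this order as well, at 7.09, 7.77, 7.51, 7.10 and 7.30. On the log2 scale the summed muscle markers ranged from 14.03 to 15.45 in WT and from 14.44 to 14.65 in KO, and the summed adipocyte markers from 9.56 to 10.25 and from 9.56 to 9.76. Keratinocyte markers, of which 5 of 6 were measured, ran in this order too, with means of 7.30, 10.73 and 9.45 in WT and 7.30 and 7.68 in KO and summed levels from 9.65 to 13.43 in WT and from 9.66 to 10.05 in KO. The part of these 3 cell types in the Fabp3 values was not tested.

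Fabp5, Fabp6 and Fabp2 were not called, and their groups overlapped. Fabp5 read 11.69, 11.80 and 11.54 in WT and 11.50 and 11.59 in KO (log2 fold change -0.13, SE 0.17, limma adjusted p = 0.719). In the reference Fabp5 is the protein-coding gene next to Pmp2, within a cluster that also holds Fabp9, Fabp4 and Fabp12. The Fabp5 probe set, however, is numbered far from those of Pmp2 and its neighbours Pag1 and Impa1, which run close together. Whether it reads this gene or a copy elsewhere was not tested. The 95% interval of Fabp5 ran from -0.48 to 0.22, apart from that of Pmp2. Both intervals use the moderated variance. Without moderation the SE of Pmp2 was 0.62 instead of 0.29, so this separation is shown for the moderated fit only. Fabp6 read 5.51, 5.79 and 5.79 in WT and 5.63 and 5.85 in KO, with a log2 fold change of 0.043 (SE 0.17). Fabp2 read 5.18, 5.34 and 5.46 in WT and 5.31 and 5.43 in KO, with a log2 fold change of 0.037 (SE 0.17). Both signs turned without WT pool 1 and without KO pool 4. Fabp6 and Fabp2 lay far below the array medians of 8.93 to 9.11. They also dropped out under the filter at the 25th percentile of the mean, so their values say little about a change. The reference lists pseudogenes of Fabp5 and Fabp3, and whether the array's probes also bind their transcripts was not tested.

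Genes around Pmp2 were not called. Of the 8 protein-coding genes on either side of Pmp2 in the reference, 16 in all, 8 were measured and 0 were called by limma. The probe sets of Fabp5, Tpd52, Zbtb10 and Zfand1 are numbered apart from those of Pmp2 and the other measured neighbours. Whether they read these genes or copies elsewhere was not tested. Their log2 fold changes ran from -0.50 (Snx16) to 0.61 (Pag1), with 0.035 for Zfand1 and -0.42 for Impa1. Pag1, 2 places from Pmp2 and next to Fabp5, was the nearest measured gene beyond the Fabp cluster, and Impa1 was the nearest on the other side. Snx16 and Impa1 rested on KO pool 4, without which they were at -0.09 and -0.09, and Pag1 was 0.26 against WT pool 1 alone. At an unadjusted p below 0.05 there were 3 of them, Pag1 (0.00420), Snx16 (0.0251) and Impa1 (0.0411), beside 14.3% of all probe sets.

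Pmp2 was compared with Fabp7, and each with its own gene list, by the difference of log2 values within a pool, which cancels any shift of a whole array. Pmp2 minus Fabp7 was 1.29, 1.25 and 2.28 in WT, against 0.40 and -0.80 in KO. The groups did not overlap, and the log2 fold change of Pmp2 less that of Fabp7 was -1.81 (-1.21 without KO pool 4). Pmp2 was also set against the mean of the other 12 measured genes listed for myelin and Schwann cell junctions, which include Cntn1 on axons. Pmp2 minus that mean was 0.97, 1.40 and 1.02 in WT and 0.21 and -1.02 in KO, a difference of -1.53 (-0.92 without KO pool 4). Both comparisons gave p = 0.1 in the two-sided exact permutation test over the 10 splits of the pools (0.15 after adjustment over 3 relations), the smallest p that 3 against 2 pools allow. Fabp7 minus the mean of the other 15 measured genes of immature Schwann cells was -0.33, 0.55 and -1.11 in WT and -0.61 and -0.82 in KO, a difference of -0.42 with overlapping groups (exact permutation p = 0.7).

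Schwann cell markers also lay lower in the KO pools, most in KO pool 4. The mean of Sox10, Cdh19 and Erbb3 was 12.12, 12.19 and 12.16 in WT and 12.04 and 11.45 in KO, and their summed level ranged from 13.77 to 13.84 in WT and from 13.08 to 13.67 in KO. None of the 3 was called (limma), with Cdh19, a Schwann lineage cadherin, at -0.56 (SE 0.20), Erbb3, a neuregulin receptor, at -0.47 (SE 0.19) and Sox10 at -0.20 (SE 0.17). These differences rested largely on KO pool 4, without which they were -0.19 for Cdh19, -0.16 for Erbb3 and -0.0023 for Sox10. At Sox10, KO pool 2 (11.64) lay inside the WT range of 11.63 to 11.65. Pmp2 minus this mean was -0.60, 0.12 and -0.49 in WT and -1.63 and -2.48 in KO, a difference of -1.73 between the group means, a comparison added after the values were seen and not tested. In pooled nerves, fewer Schwann cells and less RNA per Schwann cell cannot be told apart.

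Endothelial markers lay higher in the KO pools than in WT pools 9 and 11. All 6 were measured, and their means were 11.18, 10.73 and 10.77 in WT and 11.39 and 11.17 in KO, with summed levels from 13.57 to 14.02 in WT and from 14.09 to 14.23 in KO. All 6 had a positive log2 fold change (median 0.44, and 0.16 against WT pool 1 alone), and 0 were called by limma. Unadjusted p was below 0.05 at 5 of them, beside 14.3% of all probe sets. Of 6 macrophage markers Cd68 and Adgre1 were measured, with means of 9.08, 9.06 and 8.89 in WT and 9.13 and 9.07 in KO. Their summed levels ran from 9.93 to 10.09 in WT and from 10.07 to 10.13 in KO. The median log2 fold change of 0.09 lay between opposite signs, -0.17 for Cd68 and 0.35 for Adgre1, and neither was called. The part of either cell type in the lower Schwann cell and myelin values was not tested.

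Of the 20 genes listed for myelin and Schwann cell junctions, 13 were measured, 6 fell, 0 rose and 7 were not called, with a median log2 fold change of -0.71 beside -0.0017 over all probe sets. The list and its members were chosen with earlier results of these data known. Besides Pmp2, the falls were Dusp15, a phosphatase gene (-1.32, SE 0.21), Cldn19, a tight junction gene (-1.11, SE 0.20), Gldn, for gliomedin at nodes of Ranvier (-1.02, SE 0.20), Mag, for an adhesion protein facing the axon (-0.99, SE 0.19), and the noncompact myelin gene Ncmap (-0.86, SE 0.19, and -0.55 against WT pool 1 alone, its call also lost without WT pool 11). In 12 of the 13 genes both KO pools lay below all WT pools, which held for 13.3% of all probe sets. Unadjusted p was below 0.05 at 8 of the 13, beside 14.3% of all probe sets. Drp2, for a dystrophin-related protein of the Schwann cell membrane (-0.71, SE 0.18, adjusted p = 0.0702), and Gjc3, a connexin gene (-0.48, SE 0.19, and -0.16 without KO pool 4), had the largest changes among the genes not called. Mbp (-0.24, SE 0.17) and Cnp (-0.23, SE 0.17) were not called either, and Cntn1, for contactin on axons, was the 1 gene with a positive value (0.28, SE 0.18). The list's median was -0.45 against WT pool 1 alone, and 0 of its genes were called there or without either KO pool.

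**Figure D2:**
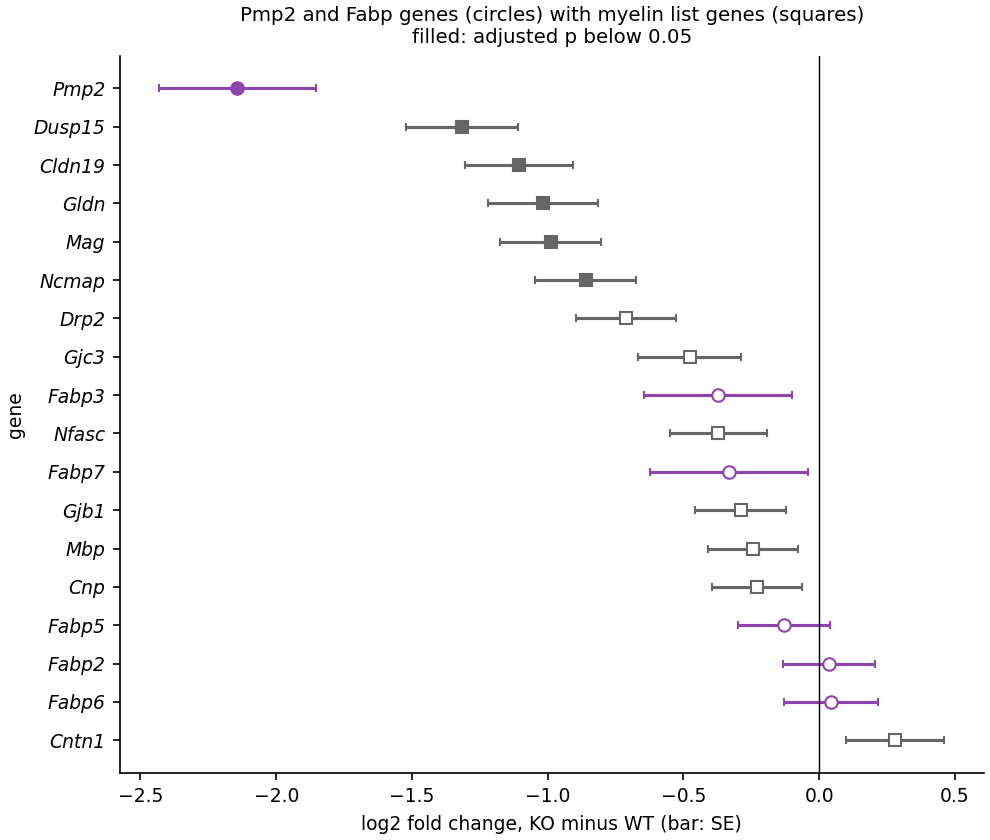
Log2 fold changes (KO minus WT, bars of 1 SE) of the 6 members, drawn as circles, and of the other 12 measured genes listed for myelin and Schwann cell junctions, drawn as squares, with filled symbols for adjusted p below 0.05. Pmp2 lies lowest at -2.14 and Dusp15 next at -1.32, and the other 5 family members lie between -0.37 and 0.043.

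Regulators of Pmp2 and Fabp7 were listed from textbook knowledge, and 15 of 17 were measured. Of these 1 fell, 0 rose and 14 were not called (median -0.10), with 4 of the 15 at an unadjusted p below 0.05. The fall was Egr2, the zinc finger factor that drives myelin genes, at 11.19, 11.53 and 11.40 in WT and 10.72 and 9.75 in KO (log2 fold change -1.13, SE 0.22, limma adjusted p = 0.0181, and -0.65 without KO pool 4). As at Pmp2, KO pool 4 was the lower of the KO pools. Pou3f2 (-0.51, SE 0.18) and Pou3f1 (-0.43, SE 0.18), POU factors of the promyelinating stage, were not called, and without KO pool 4 they were at -0.31 and -0.19. Erbb3, also on this list, was at -0.47. The Notch pathway genes Notch1, Rbpj, Hes1 and Hes5, upstream of Fabp7 in glia, were at 0.08, 0.26, 0.08 and -0.10, and none was called.

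Genes of immature Schwann cells, among which Fabp7 was listed, were mostly not called. Of 21 genes 16 were measured, 1 rose, 0 fell and 15 were not called (median 0.07), with 4 of the 16 at an unadjusted p below 0.05. The rise was Id3, whose protein blocks helix-loop-helix factors, from 9.25, 8.95 and 9.10 in WT to 9.68 and 10.17 in KO (log2 fold change 0.83, SE 0.18, limma adjusted p = 0.0380), and its call ended without WT pool 11 as well (adjusted p = 0.0858). Mki67, a gene of dividing cells, was at 0.56 (SE 0.20, and 0.10 against WT pool 1 alone), and Cdh19 was at -0.56; neither was called.

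Uptake brings fatty acids into the cell, and activation prepares them for use. Of 19 genes for these steps 9 were measured and 0 were called by limma, with a median of -0.29. Unadjusted p was below 0.05 at 4 of the 9, beside 14.3% of all probe sets. Slc27a6, Acss1 and Lpl had a negative value there and Acsl4 a positive value. Acsl4, which activates polyunsaturated fatty acids, read 10.01, 9.55 and 9.65 in WT and 10.38 and 10.38 in KO (0.64, SE 0.18, adjusted p = 0.0946). Acss1, for mitochondrial acetyl-CoA synthetase, was at -0.54 (SE 0.20, and -0.13 without KO pool 4) and Lpl, the lipase that frees fatty acids from lipoproteins, at -0.48 (SE 0.20, and -0.16 against WT pool 1 alone).

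Of 28 genes for fatty acid synthesis, elongation, desaturation and hydroxylation 16 were measured, 2 fell, 0 rose and 14 were not called (median -0.16, and -0.0055 against WT pool 1 alone). Elovl7, an elongase, read 10.26, 10.85 and 10.53 in WT and 9.61 and 9.39 in KO (log2 fold change -1.05, SE 0.19, limma adjusted p = 0.0111). Fa2h, the fatty acid hydroxylase behind hydroxylated myelin lipids, read 11.13, 11.60 and 11.36 in WT and 10.72 and 10.42 in KO (-0.79, SE 0.18, adjusted p = 0.0465), and lost its call without WT pool 11 too (adjusted p = 0.112). At both genes the KO pools lay below all WT pools. Elovl4 (0.53, SE 0.18) and Elovl5 (0.42, SE 0.17), elongases of very long and polyunsaturated fatty acids, had both KO pools above all WT pools, and Elovl6 (-0.47, SE 0.17), an elongase of saturated and monounsaturated fatty acids, had them below; none of the 3 was called. Groups did not overlap at 12 of the 16 genes, 6 lower and 6 higher in KO, beside 13.3% and 17.5% of all probe sets. Unadjusted p was below 0.05 at 8 of the 16, beside 14.3% of all probe sets.

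Of 18 genes for lipid storage and lipolysis 14 were measured, 1 fell, 0 rose and 13 were not called (median -0.11). Unadjusted p was below 0.05 at 3 of the 14. Angptl4, a secreted inhibitor of lipoprotein lipase that fatty acids induce through PPAR receptors, read 9.51, 10 and 9.20 in WT and 8.83 and 8.39 in KO (log2 fold change -0.96, SE 0.21, limma adjusted p = 0.0359). Mgll, the monoacylglycerol lipase, was at -0.67 (SE 0.19, adjusted p = 0.0948), and Lpin2, for a phosphatidate phosphatase, at 0.47 (SE 0.19, adjusted p = 0.240). Of 24 genes for fatty acid oxidation 12 were measured and 0 were called by limma (1 at an unadjusted p below 0.05, Acot2), with a median of -0.19. Acot2, a mitochondrial thioesterase, was at 0.40 (SE 0.18), and Pdk4, a kinase that shifts cells toward fatty acid use, at 0.36 (SE 0.27), or -0.28 without KO pool 4.

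**Figure D3:**
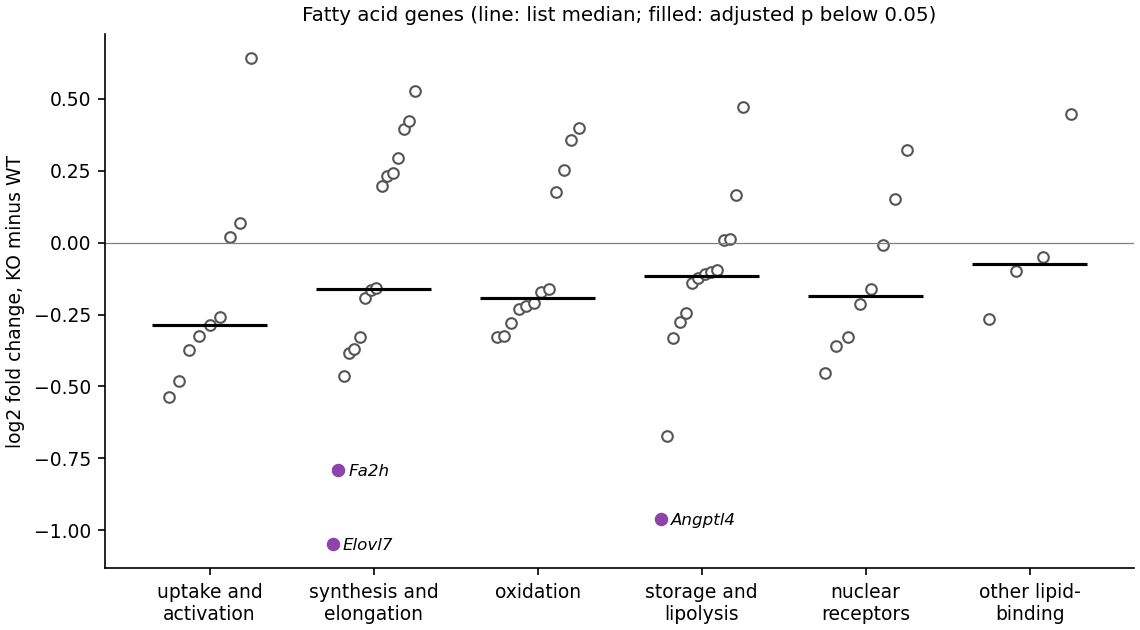
Log2 fold changes (KO minus WT) of the measured genes in 6 lists around fatty acid handling, 1 point per gene, with a line at each list's median and filled points for adjusted p below 0.05. Elovl7, Fa2h and Angptl4 are the 3 filled points, all below 0, and the medians lie between -0.29 and -0.07.

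Nuclear receptors to which fatty acid-binding proteins hand their cargo, with their partners, gave 8 measured genes of 16 and 0 limma calls (1 at an unadjusted p below 0.05, Rxrg), with a median of -0.19. Rxrg, a retinoid X receptor gene, was at -0.45 (SE 0.20), with 10.93, 10.95 and 11.07 in WT, 10.94 in KO pool 2 and 10.13 in KO pool 4, so its difference came from KO pool 4. Ppargc1a, a coactivator gene, was at -0.36 (SE 0.22), or 0.13 without KO pool 4. Ppara was at -0.33 (SE 0.17), while Ppard and Pparg were not analysed here.

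The retinoid-binding relatives of the family gave 4 measured genes of 5 and 0 limma calls (1 at an unadjusted p below 0.05, Crabp1). Crabp1, a retinoic acid-binding protein gene, read 11.51, 11.16 and 10.93 in WT and 11.59 and 11.70 in KO (0.45, SE 0.19, adjusted p = 0.269). Crabp2, its close relative, read 8.82, 8.60 and 8.73 in WT and 8.50 and 8.41 in KO (-0.27, SE 0.17, adjusted p = 0.482). Rbp7 (-0.10, SE 0.19) and Rbp2 (-0.05, SE 0.19), retinol-binding protein genes, had overlapping groups, and the sign of Rbp2 turned with each array centred on its median (0.0078).

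The 5 genes whose values ran closest to each member were found by the root mean square difference over the 5 pools, each gene less its own mean. For Pmp2 they were Slc9a3 (0.43), Dusp15 (0.49), Klrb1a (0.50), Shtn1 (0.50) and Ebf2 (0.51), where the median over all genes was 1.18. They were chosen on the same 5 pools, so their lower KO values and the low place of KO pool 4 follow from the choice. At Slc9a3 the log2 fold change was -1.36 (SE 0.30), at Klrb1a -1.18 (SE 0.24) and at Shtn1 -1.17 (SE 0.27). Slc9a3 encodes a sodium-proton exchanger, Klrb1a a natural killer cell receptor and Shtn1 a protein of growing axons. Without KO pool 4 the values were -0.51 for Slc9a3, -0.70 for Klrb1a and -0.44 for Shtn1, and without KO pool 2 they were -2.21 for Slc9a3 and -1.91 for Shtn1.

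For Fabp7 the closest genes were Tyrp1 (0.25), Mrgpra1 (0.28), Necab1 (0.28), Edil3 (0.28) and Mir1a-2 (0.29), with a median of 0.57 over all genes. Here too the choice fixes the shape over the pools, WT pool 9 highest included. Tyrp1, a pigment enzyme gene of melanocytes, read 7.48, 8.61 and 7.30 in WT and 7.48 and 7.01 in KO. The WT means of these 5 genes ran from 4.14 (Mir1a-2) to 8.50 (Edil3), below the lowest array median of 8.93. Mrgpra1 read 6.14 in WT pool 1 and in both KO pools. At such low levels a shared shape carries little weight. The keratinocyte markers given beside Fabp3 were highest in WT pool 9 too (10.73), while in WT pool 11, where they were next highest (9.45), Fabp7 was at its lowest. Their part in the Fabp7 values was not tested.

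**Figure D4:**
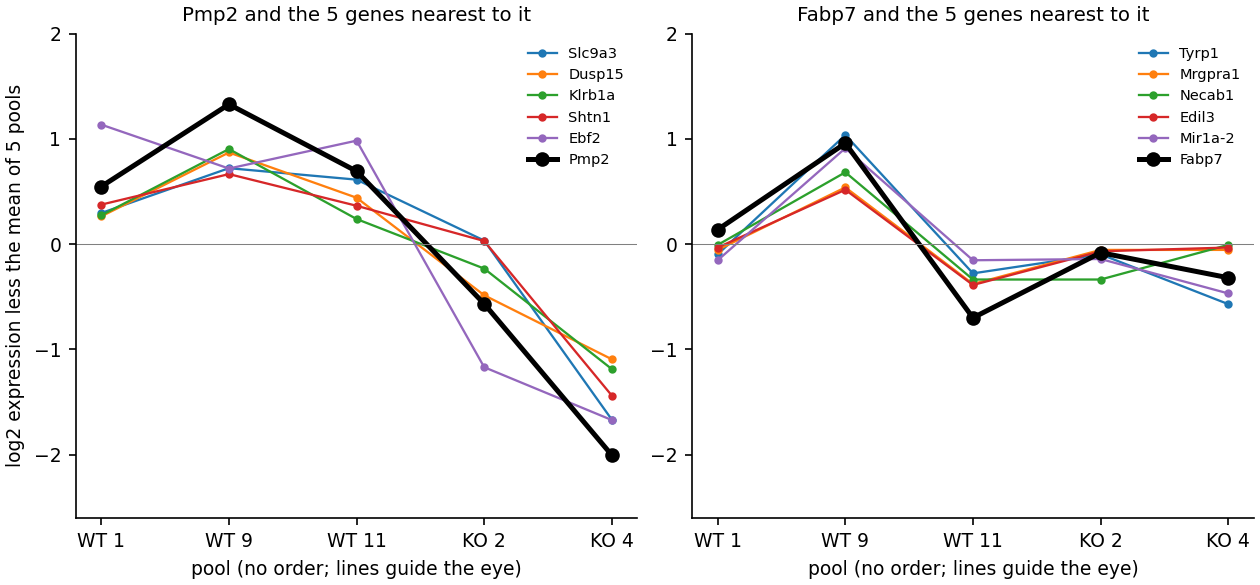
Log2 expression less each gene's mean over the 5 pools, for Pmp2 (left, black) and Fabp7 (right, black) with the 5 genes closest to each in color. KO pool 4 is the lowest point for Pmp2 and its 5 genes, and WT pool 9 is the highest for Fabp7 and its 5 genes.

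**Figure D5:**
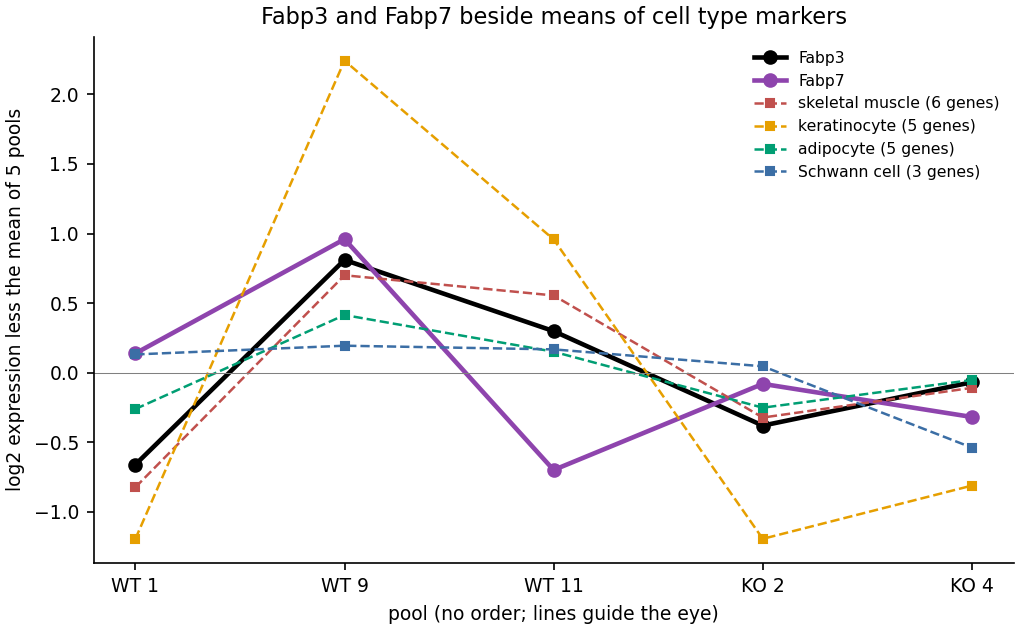
Log2 expression less the mean over the 5 pools for Fabp3 and Fabp7 (solid lines) and for the mean of each list of cell type markers (dashed lines). Fabp3 and the skeletal muscle mean are both lowest in WT pool 1 and highest in WT pool 9, while Fabp7 is lowest in WT pool 11 (9.39).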

How the data were processed

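The authors deposited log2 expression values, and the submitters' processing notes name RMA, which corrects background, normalizes arrays and summarises probes. RMA's settings and the genome build: not given in the sources used here.  Gene names came from a platform annotation of 2016, in which 9411 of 10361 had 1 symbol, 384 had several and 566 were not listed. A gene with several probe sets was represented by that with the highest mean.

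KO and WT were compared on the deposited values with limma 3.58.1 in R 4.3.3 (lmFit, eBayes, no covariates), two-sided, with Benjamini-Hochberg adjustment. Residual degrees of freedom were 3 and prior ones 17.4, and the fit was tested on simulated data. Precision is limited by the small number of arrays, 3 WT and 2 KO. The members and gene lists were chosen with earlier results of these data known. Named genes were all members, Ebf2, in each list the called genes and the 2 largest other changes, the retinoid-binding relatives and the 5 genes closest to Pmp2 and to Fabp7. Mbp, Cnp, Cntn1, Sox10, Pou3f1, the Notch pathway genes, Lpl, Slc27a6, Elovl5, Ppara, Krt1 and the neighbours of Pmp2 were named after their values were seen. Departing from the rule, marker genes of cell types other than Schwann cells are given as list means, with Cd68 and Adgre1 also given singly. Alternatives were another centring or scaling, another prior, no moderation, filters above the 25th and 50th percentile of the mean, each pool left out, and WT pool 1 as the sole reference.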

Additional observations from a re-analysis of the deposited data

How the results depend on the processing

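The Pmp2 log2 fold change was negative in all alternatives run, from -2.86 to -1.42 with 1 pool left out, -1.83 against WT pool 1 alone, -2.08 with median centring, -2.14 after quantile normalisation and -2.14 without moderation, and in these last 4 it was not called. It stayed called with limma trend, both filters and without WT pool 11. In the fit without WT pool 11 the genes named here shared the same SE of 0.26. The calls of that fit, 105 in all, therefore do not reflect how far each gene's own values spread. With 1 pool left out Fabp7 ran from -0.75 to 0.081, Fabp6 from -0.068 to 0.15, Fabp2 from -0.036 to 0.10 and Fabp3 from -0.78 to -0.044. Fabp3 was 0.44 against WT pool 1 alone. The count of called probe sets was 70, from 0 to 105 with 1 pool left out, 0 against WT pool 1 alone (286 at an unadjusted p below 0.05), 0 without moderation (498), 1 with median centring, 1 after quantile normalisation, 158 with limma trend and 287 above the 50th percentile. The cause of these shifts was not tested. Without KO pool 2 or 4 the lone KO pool was assumed to vary like the WT pools.

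Against WT pool 1 alone the list medians were -0.45 for myelin, -0.18 for fatty acid uptake, -0.0055 for fatty acid synthesis, 0.12 for the retinoid-binding relatives, 0.098 for adipocyte, 0.16 for endothelial, 0.22 for keratinocyte and 0.62 for skeletal muscle markers. The sign of single genes turned there for Rbp2 (0.25), Rbp7 (0.10), Krt1 (0.22), Notch1 (-0.20) and Hes5 (0.096). Above the 50th percentile the medians were -0.99 for myelin, 0.15 for immature Schwann cells, -0.26 for fatty acid synthesis, -0.0097 for nuclear receptors, 0.45 for the relatives and -0.17 for macrophage markers. With median centring they were -0.10 for fatty acid synthesis, -0.13 for oxidation and 0.13 for immature Schwann cells, and Rbp2 was 0.0078. With 1 pool left out the medians ran from -0.20 to 0.085 for the relatives, -0.20 to 0.021 for regulators, -0.28 to 0.051 for nuclear receptors, -0.39 to -0.13 for uptake, -0.26 to -0.044 for synthesis, -0.25 to -0.10 for oxidation, -0.84 to -0.58 for myelin and -0.79 to -0.16 for Schwann markers. The single genes whose sign turned with 1 pool left out ran from -0.20 to 0.082 for Rbp2, -0.28 to 0.088 for Rbp7, -0.85 to 0.13 for Ppargc1a, -0.28 to 1.00 for Pdk4, -0.025 to 0.22 for Notch1, -0.12 to 0.28 for Hes1, -0.27 to 0.073 for Hes5, -0.25 to 0.32 for Zfand1, -0.30 to 0.16 for Mrgpra1 and -0.29 to 0.16 for Edil3. Fabp7 minus its list ran from -0.82 to 0.0084. No paired analysis was possible because the WT and KO pools share no pool number.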
